A study of Mus musculus with 6 samples.

Results

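The 10 genes described here belong to the germline and meiosis program and were read in motor neurons (MNs) differentiated from mouse embryonic stem cells (mESCs). They are Stra8, Dazl, Ddx4, Mael, Sycp1, Sycp3, Hormad1, Smc1b, Stag3 and Tex11. They were taken by symbol from a table of 41945 genes and loci, and each symbol had 1 entry. The Hb9 control line (its cells are called Hb9 MNs here) is wildtype for mouse Smn (mSmn), and the A2 SMA line (A2 MNs) has the genotype SMN2+/+;mSmn-/-. Both lines carry the human SMN2 transgene and an HB9:eGFP reporter, which marks cells that use the Hb9 promoter, and both are listed on the FVB/N background. Embryoid bodies of both lines were exposed to 1 µM retinoic acid (RA) and 1 µM Smoothened agonist for 5 days, and GFP-positive cells were collected by FACS. RNA was sequenced from 3 samples per genotype. Each genotype is represented by a single mESC line, so genotype and line cannot be told apart.

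Germ cells are set aside early in the mouse embryo and later enter meiosis, the division that reduces the chromosome number. Sister chromatids are then held together by a meiosis-specific form of the cohesin ring. Homologous chromosomes are paired along a protein ladder called the synaptonemal complex and joined by recombination. Most genes of this program are silent in somatic cells, where their CpG-rich promoters are repressed by DNA methylation, by H3K9 methylation and by a Polycomb complex that contains Mga, Max and E2f6. Cultured mESCs are known to transcribe several of them without entering meiosis. Stra8 is named for its response to RA.

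The authors' table gives 1 FPKM value per genotype (a fragment count scaled to exon length and to all mapped fragments), which combines the 3 samples. No replicate spread or SD can therefore be given for any value below, and levels that lie close together cannot be ranked beyond doubt. No test is given either, since none can be computed from these values and the authors' own test results were not used. Differences are given as the log2 ratio of FPKM in A2 over Hb9 MNs, with nothing added to either value, and a difference of at least 2-fold is used to count genes. The status FAIL marks entries for which the comparison by Cuffdiff met a numerical error. The background is the 14388 genes with a symbol and a mean of at least 1 FPKM over the genotypes. Its median log2 ratio was -0.28, so counts that differ relative to that median gene are given on both scales, as are the main ratios. As deposited, 6.21% of the background was at least 2-fold higher in A2 MNs and 21.4% at least 2-fold lower. Relative to the median gene the shares were 9.65% and 15.7%. Every count for a list below is to be read beside these shares. Smn1, the gene disrupted in the A2 line, was at 137 FPKM in Hb9 MNs and 5.26 FPKM in A2 MNs, a 25.9-fold lower level that follows the labels. The study lists total reads per sample, but the table does not give the number of reads that any level rests on. The A2 MNs went against their cell type label in part, since of 10 MN markers 9 were at least 2-fold lower there and Chat was at 0.344 FPKM, whereas all 13 markers of pluripotent cells were at least 2-fold higher.

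All 10 germline and meiosis genes were listed at a higher level in A2 MNs, whereas 34.0% of the background genes were higher there by any amount (50% relative to the median gene, where all 10 were again above 0). The median log2 ratio of the 10 genes was 0.81, and 1.09 relative to the median gene. The quartiles of the background were -0.86 and 0.18. Stag3 (3.76-fold) and Hormad1 (2.77-fold) were the 2 members at least 2-fold higher, beside 6.21% of the background. No member was at least 2-fold lower, beside 21.4% of the background. The count is sensitive to scaling because 5 members lie just under the limit. Relative to the median gene 7 members were at least 2-fold higher, beside 9.65% of the background, and again none was lower, beside 15.7%. As deposited none was 4-fold higher, and relative to the median gene Stag3 was (4.57-fold). All 10 members passed the mean of 1 FPKM, and the other 8 members had log2 ratios from 0.16 to 0.87. In pooled cells, more cells that express a gene and more RNA per expressing cell cannot be told apart.

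**Figure D1:**
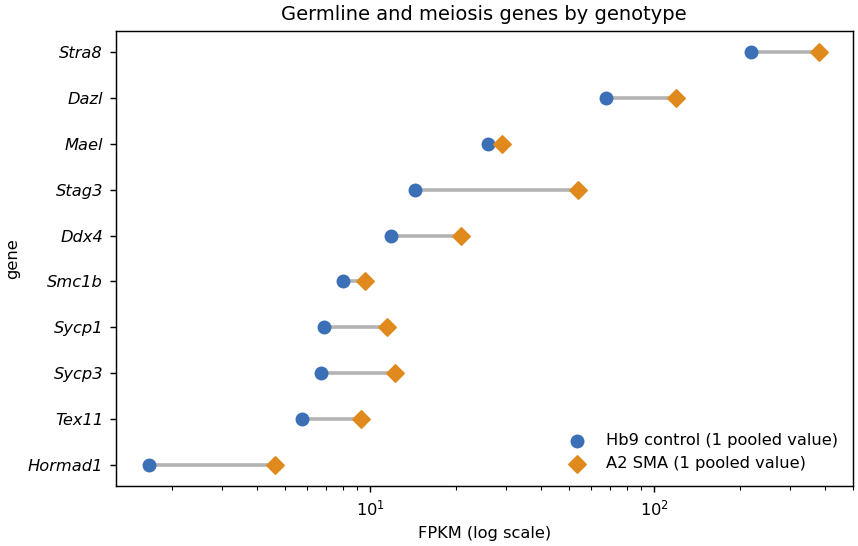
FPKM on a log scale of the 10 genes in Hb9 MNs (circles) and A2 MNs (diamonds), with 1 pooled value per genotype and no error bar. Every diamond lies to the right of its circle, the lines of Stag3 and Hormad1 are the longest, and Stra8 stands highest in both genotypes at 219 and 381 FPKM.

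**Figure D2:**
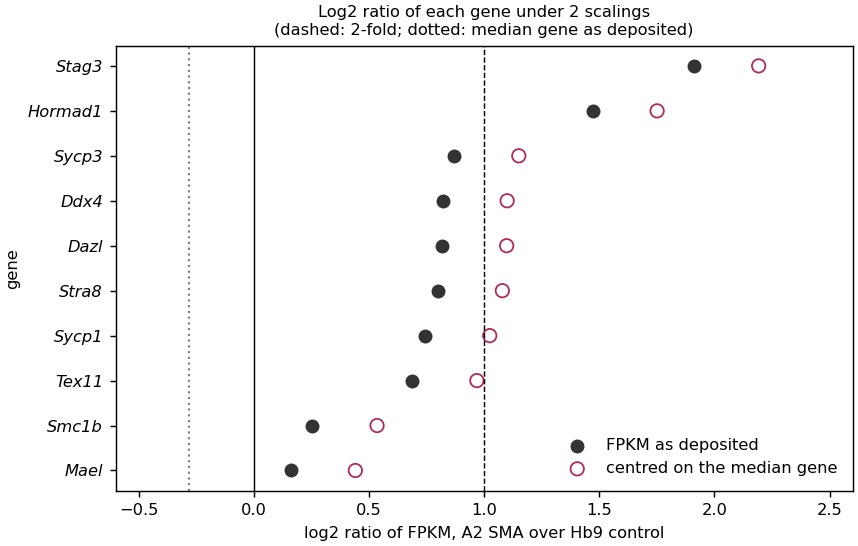
Log2 ratio of FPKM in A2 over Hb9 MNs for the 10 genes, as deposited (filled) and relative to the median gene (open). As deposited, 2 points lie beyond the dashed 2-fold line, and 7 do once the median gene, at -0.28, is set to 0.

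The promoters of 4 members are shown to set the letters searched beside the values. They are the windows of the 2 members past the 2-fold limit (Hormad1 and Stag3), of Sycp3 with the E-box present 2 times, and of Stra8, the most abundant member. The sequences are those of RefSeq for GRCm38.p6, from 250 bases before to 50 bases after the start site, written 5′ to 3′ on the strand of the gene. They lie at chr3:95559427-95559726 (+) for Hormad1 (the first of 2 windows), chr5:138280259-138280558 (+) for Stag3, chr10:88459337-88459636 (+) for Sycp3 and chr6:34920698-34920997 (+) for Stra8. Capitals mark 3 motifs on either strand, which are the E-box CACGTG bound by Mga with Max, the E2F site TTCCCGC and the nuclear receptor site AGGTCA, which RA receptors bind. A match on the other strand appears as the reverse complement.
Hormad1: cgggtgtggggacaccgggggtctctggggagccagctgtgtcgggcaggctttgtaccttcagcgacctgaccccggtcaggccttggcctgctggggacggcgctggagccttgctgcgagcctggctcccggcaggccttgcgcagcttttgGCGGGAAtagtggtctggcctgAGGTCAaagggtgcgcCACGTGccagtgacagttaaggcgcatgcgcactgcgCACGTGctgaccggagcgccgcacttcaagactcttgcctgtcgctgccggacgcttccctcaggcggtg
Stag3: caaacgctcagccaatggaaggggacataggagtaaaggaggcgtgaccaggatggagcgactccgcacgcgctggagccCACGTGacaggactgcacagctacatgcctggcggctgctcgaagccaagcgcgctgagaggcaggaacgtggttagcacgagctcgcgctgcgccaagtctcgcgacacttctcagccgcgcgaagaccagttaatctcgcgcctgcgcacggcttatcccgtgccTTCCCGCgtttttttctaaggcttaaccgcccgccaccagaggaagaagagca
Sycp3: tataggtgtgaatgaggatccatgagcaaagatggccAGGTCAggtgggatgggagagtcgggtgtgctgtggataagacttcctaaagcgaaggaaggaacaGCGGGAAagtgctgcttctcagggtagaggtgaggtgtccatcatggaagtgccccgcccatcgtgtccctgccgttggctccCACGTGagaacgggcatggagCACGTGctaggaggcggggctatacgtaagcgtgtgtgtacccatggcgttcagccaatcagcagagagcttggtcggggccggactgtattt
Stra8: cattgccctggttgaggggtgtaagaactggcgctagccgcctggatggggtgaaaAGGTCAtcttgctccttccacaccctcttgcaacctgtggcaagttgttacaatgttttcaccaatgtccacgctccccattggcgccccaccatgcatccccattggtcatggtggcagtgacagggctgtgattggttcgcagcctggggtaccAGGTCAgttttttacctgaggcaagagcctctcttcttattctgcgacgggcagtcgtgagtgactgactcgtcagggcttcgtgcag

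RefSeq windows were matched for 9 of the 10 members, all except Tex11. The E-box occurred in 6 of these 9 genes, namely Ddx4, Mael, Sycp1, Sycp3, Hormad1 and Stag3. Counted by window (Hormad1 has 2), it was in 7 of 10 member windows, and in 7.15% of all 32851 promoter windows of this length. Member windows are rich in CpG, with a median of 24 CpG against 7 over all windows. Among the 11378 windows with at least 15 CpG, the fewest in a member window with an E-box, the share with the E-box was 11.3%. Counted from the start site, the first base of the E-box lies at -64 and -43 in Sycp3 and at -57 and -20 in Hormad1. The E2F site occurred in 5 members (Ddx4, Sycp3, Hormad1, Smc1b and Stag3), which hold 6 of the 10 member windows. It was in 4.6% of all windows and in 10.3% of those with at least 15 CpG. In the 93 windows of the other germline and meiosis genes described below, the E-box was in 21.5% and the E2F site in 12.9%. In Ddx4, Sycp3, Hormad1 and Stag3 both motifs were present, and no match of 1 motif overlapped a match of another. The receptor site AGGTCA occurred in Stra8, Sycp3 and Hormad1 (4 of the 10 member windows) and in 16.3% of all windows, 9.37% of those with at least 15 CpG and 11.8% of those of the other germline genes. The Stra8 window, with 10 CpG, is outside that CpG-rich class. Stra8 was the only member with 2 of them, whose first bases lie at -194 and -38. The Dazl window had none of these letters. A match is a description of the window and not evidence of binding.

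**Figure D3:**
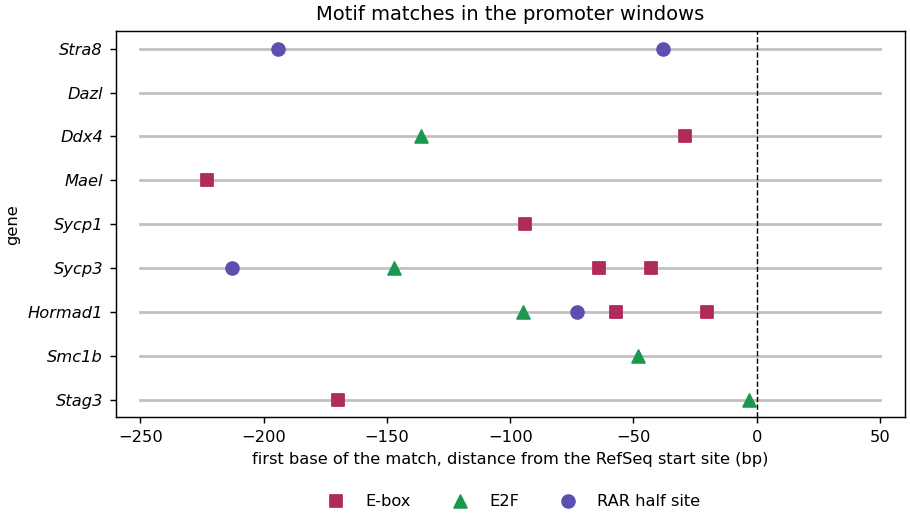
Positions of the 3 motifs in the promoter windows of 9 members, in bp from the RefSeq start site (dashed line). Squares (E-box) are seen in 6 genes, triangles (E2F) in 5 and circles (receptor site, labelled RAR) in 3, and the line of Dazl is empty.

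Stra8, a factor needed for germ cells to begin meiosis, lies on chromosome 6 from 34870163 to 34889342 (NCBI m37, the build of the table, for this and the following positions). It was at 219 FPKM in Hb9 MNs and 381 FPKM in A2 MNs, a log2 ratio of 0.80 (1.08 relative to the median gene). These levels exceeded those of 97.6% of background genes in Hb9 MNs and 99.3% in A2 MNs. The gene was thus among the most abundant transcripts of both genotypes, and it made up 59.6% and 58.5% of the summed FPKM of the 10 members. RA targets were set beside it, since both lines were treated with RA. Of 9 such genes, 7 were at least 2-fold lower in A2 MNs (6 relative to the median gene) and none was 2-fold higher, and the median log2 ratio was -1.88. Rarb, an RA receptor that is itself induced by RA, went from 20.1 to 3.77 FPKM. Stra8 was higher in the genotype in which most of these genes were lower.

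Other factors of meiotic entry and of germ cell transcription were read from a list of 12 genes, 8 of which had a mean of at least 1 FPKM. In A2 MNs 4 were at least 2-fold higher and 1 (Rarb) at least 2-fold lower, and the median log2 ratio was 0.95. Without the status FAIL, which Dmrt1 and Rarg have, 2 of 5 were higher and the median was 0.45, as it was with a mean of at least 5 FPKM. Sohlh1, which drives spermatogonial and oocyte differentiation, was at 0.347 FPKM in Hb9 MNs and 7.17 FPKM in A2 MNs. It passed the mean of 1 FPKM only through A2 MNs, so its log2 ratio of 4.37 rests on a level near the floor. Its partner Sohlh2 was abundant in both genotypes, at 92.3 and 126 FPKM (log2 ratio 0.45). Dmrt1, a regulator of the mitosis to meiosis switch in the testis, had 32.7 and 92.2 FPKM (log2 ratio 1.49). Gm1564, the symbol used in the table for Meioc, which keeps germ cells in meiotic prophase, had 17.2 and 22.3 FPKM. Rarg was at 12.5 and 65.5 FPKM, a ratio opposite to that of Rarb.

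Dazl, Ddx4 and Mael encode proteins that act on RNA in germ cells. Dazl, which binds mRNA and licenses germ cells for gamete formation, lies on chromosome 17 from 50418718 to 50432924. Its level was 67.6 FPKM in Hb9 MNs and 119 FPKM in A2 MNs (log2 ratio 0.82). Ddx4, the RNA helicase also called Vasa, lies on chromosome 13 (113388485 to 113442570). Its values were 11.8 and 20.9 FPKM (log2 ratio 0.82). Mael, which acts in transposon silencing by piRNAs, lies on chromosome 1 (168131516 to 168168875). Its values were 26.1 and 29.1 FPKM. Its log2 ratio of 0.16 was the smallest of the 10. Dazl and Ddx4 thus differed by the same factor, 1.76-fold, at levels far apart, whereas Mael was nearly level between the genotypes.

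The piRNA pathway, in which small RNAs guide Piwi proteins to transposons, was read from 20 further genes. Of the 15 with a mean of at least 1 FPKM, 5 were at least 2-fold higher and 2 at least 2-fold lower in A2 MNs (7 and 1 relative to the median gene), and the median log2 ratio was 0.29. Without the status FAIL, which Piwil2 and Rnf17 have, 2 of 11 were higher. Fkbp6, a cochaperone of the pathway, had 6.98 FPKM in Hb9 MNs and 24.2 FPKM in A2 MNs. Piwil2, which encodes a Piwi protein itself, had 5.68 and 16.6 FPKM, and Rnf17 had 17.0 and 43.2 FPKM. Tdrkh, which tethers Piwi proteins to mitochondria, ran the other way at 21.1 and 6.75 FPKM. Gpat2 was level at 28.6 and 28.1 FPKM, also with the status FAIL. Genes of the pathway thus ran in both directions, where 6.21% of the background was at least 2-fold higher and 21.4% at least 2-fold lower. The log2 ratio of Mael lay between the extremes of the list, -1.64 and 1.79.

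Of 13 germ cell RNA-binding proteins, 12 had a mean of at least 1 FPKM. In A2 MNs 1 was at least 2-fold higher and 2 at least 2-fold lower, beside 6.21% and 21.4% of the background. The median log2 ratio was -0.10 (0.18 relative to the median gene). Rbmxl2, a testis-enriched member of the RBMX family, had 13.2 and 42.4 FPKM. Celf3 went from 72.0 to 2.90 FPKM and Elavl2 from 42.2 to 17.2 FPKM. Celf3 and Elavl2 are also expressed in neurons, and Celf3 has the status FAIL. Pum2, a general regulator of mRNA, had 171 and 156 FPKM (log2 ratio -0.14).

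Sycp1, Sycp3 and Hormad1 build the chromosome axis and the synaptonemal complex. Sycp1, the transverse filament between paired homologs, lies on chromosome 3 (102622422 to 102740066). Its values were 6.84 FPKM in Hb9 MNs and 11.5 FPKM in A2 MNs (log2 ratio 0.74). Sycp3, a component of the lateral element, lies on chromosome 10 (87915490 to 87966818). Its values were 6.70 and 12.3 FPKM (log2 ratio 0.87). Sycp1 and Sycp3 were close to each other in both genotypes, and exceeded 27.3% and 27.0% of background genes in Hb9 MNs. The locus of Sycp3 is shared with Chpt1, which had a separate entry. The spans of Smc1b (with Gm10923) and Tex11 (with U7 and Gm14901) also overlap other entries, which were at or near 0. Because the library kit does not mark strand, reads from any overlap of the genes cannot be assigned. Hormad1, an axis protein that monitors pairing, lies on chromosome 3 from 95363564 to 95391696 and was the least abundant member, at 1.66 and 4.61 FPKM. Its log2 ratio of 1.47 was the second largest of the members and rests on a low level in Hb9 MNs, where 6.596% of background genes were lower.

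The other genes of this structure were read from a list of 8, of which 7 had a mean of at least 1 FPKM. Of these, 6 were higher in A2 MNs by any amount and 2 at least 2-fold (7 and 4 relative to the median gene), and none was 2-fold lower. Their median log2 ratio was 0.79, close to that of the 10 members. The central element genes Syce1 (8.65 and 19.0 FPKM) and Syce2 (36.4 and 77.1 FPKM) were the 2 beyond 2-fold. Hormad2 had 10.3 and 16.9 FPKM. The exception was 4930447C04Rik, also named Six6os1, at 41.7 and 40.6 FPKM.

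Smc1b and Stag3 are subunits of the meiotic cohesin ring and take the places of Smc1a and of Stag1 or Stag2. Smc1b lies on chromosome 15 (84895004 to 84962387). Its values were 7.998 FPKM in Hb9 MNs and 9.54 FPKM in A2 MNs, a log2 ratio of 0.25. Stag3 lies on chromosome 5 (138721468 to 138753621). Its values were 14.4 and 54.0 FPKM. Its log2 ratio of 1.91 was the largest of the 10 members. Stag3 exceeded 42.8% of background genes in Hb9 MNs and 82.6% in A2 MNs. The 2 subunits of the same ring therefore differed unequally between the genotypes.

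Meiotic subunits were compared, in FPKM, with their general counterparts. Stag1 was added for this sum after its values were seen. FPKM is per length. Stag3 made up 11.2% of the summed FPKM of Stag1, Stag2 and Stag3 in Hb9 MNs and 35.5% in A2 MNs. The sum of Stag1 and Stag2 was 114 and 98.0 FPKM. Smc1b made up 6.005% and 7.84% of Smc1a and Smc1b together. The meiotic kleisin Rec8, which closes the ring in place of Rad21, ran against Stag3, from 120 FPKM in Hb9 MNs to 49.95 FPKM in A2 MNs (log2 ratio -1.26, and -0.98 relative to the median gene, inside the 2-fold limit). Its share of Rec8 and Rad21 was 42.6% and 20.3%. The other meiotic kleisin, Rad21l, was at 0.268 and 0.306 FPKM. Sgol2, which shields centromeric cohesin, had 21.7 and 48.8 FPKM, with the status FAIL. Among 10 genes of mitotic cohesin and its regulators none differed 2-fold, and their median log2 ratio was 0.25.

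**Figure D4:**
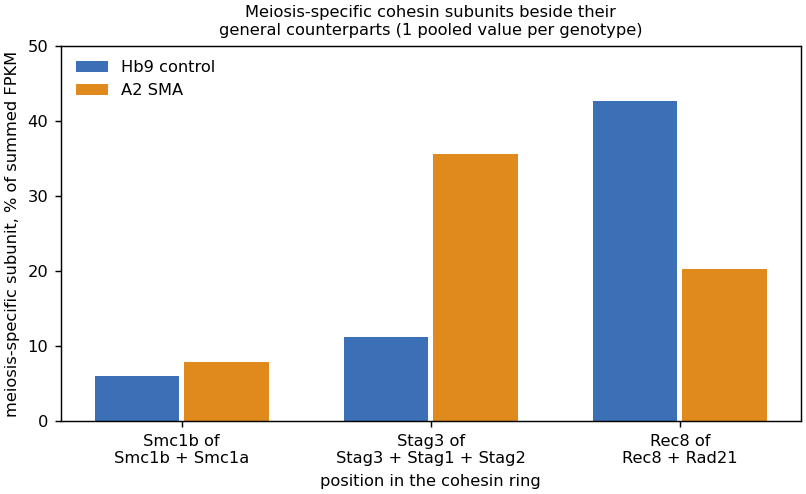
Share of each meiosis-specific cohesin subunit in the summed FPKM of the genes that can fill its position, in percent, with 1 pooled value per genotype. The bar of Stag3 is taller in A2 MNs (35.5% against 11.2%), that of Rec8 is shorter (20.3% against 42.6%), and those of Smc1b stand at 6.005% and 7.84%.

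Tex11, an X-linked gene whose protein promotes crossovers and synapsis, lies on the X chromosome from 98033987 to 98255006. It had 5.75 FPKM in Hb9 MNs and 9.26 FPKM in A2 MNs, a log2 ratio of 0.69. At 0.97 relative to the median gene it stayed just inside the 2-fold limit. Meiotic recombination was read from 21 other genes, 18 of which were in the table and 13 of which had a mean of at least 1 FPKM. In A2 MNs 4 were at least 2-fold higher and 2 at least 2-fold lower (5 and 1 relative to the median gene), and the median log2 ratio was 0.44. With a mean of at least 5 FPKM 2 of 10 were higher and the median was 0.17, and with no filter 7 of 18 were higher. Msh4 (0.796 and 1.71 FPKM), named after its values were seen, passed the limit only through A2 MNs. Dmc1, the meiotic recombinase, had 6.75 and 15.4 FPKM, with the status FAIL. Without that status 3 of 10 genes were at least 2-fold higher. Tex15 had 2.83 and 10.3 FPKM, and Mei4, which is needed to make the initiating DNA breaks, had 1.08 and 3.41 FPKM. Prdm9, which positions those breaks, ran the other way at 8.74 and 3.43 FPKM. Psmc3ip, a partner of Dmc1, was nearly level at 44.5 and 41.3 FPKM, also with the status FAIL. Of the 5 genes in the table under the limit, Spo11, which cuts the DNA to start recombination, was at 0.0856 and 0.135 FPKM and Mei1 at 0.0320 and 0.174 FPKM, and both were named after their values were seen.

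Over the 6 lists of other germline and meiosis genes together, 57 of 78 genes had a mean of at least 1 FPKM. Of these, 17 were at least 2-fold higher and 8 at least 2-fold lower in A2 MNs, and 35 were higher by any amount. The same shares over the background were 6.21%, 21.4% and 34.0%. The median log2 ratio was 0.37, below the 0.81 of the 10 members. Relative to the median gene 22 were at least 2-fold higher and 5 at least 2-fold lower, 44 were higher by any amount, and the median was 0.66. The E-box was in the promoter of 12 of the 49 of these genes that had a RefSeq window. Of the 12, 4 were at least 2-fold higher (Fkbp6, Rbmxl2, Syce2 and Sohlh1, the last with the low Hb9 level given above) and none was 2-fold lower. Of the 37 without it, 8 were higher and 8 lower by this limit. The medians ran the other way, with a log2 ratio of 0.26 for the 12 and 0.43 for the 37, and 7 of the 12 and 22 of the 37 were higher by any amount.

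**Figure D5:**
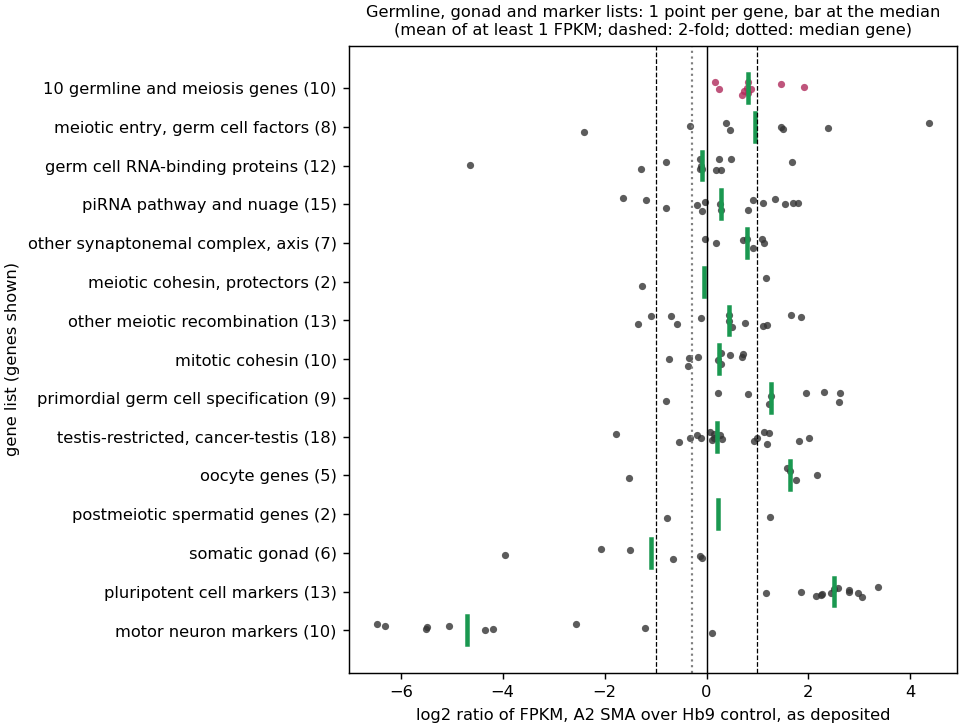
Log2 ratio of FPKM in A2 over Hb9 MNs, as deposited, for the 10 members and for lists of germline, gonad and marker genes, with 1 point per gene and a bar at each median. The members lie between 0.16 and 1.91, the pluripotent cell markers have a median of 2.51, and the motor neuron markers have a median of -4.70.

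Stages before and after meiosis were read in the same way. Of 9 genes of primordial germ cell specification, 6 were at least 2-fold higher in A2 MNs (7 relative to the median gene) and none was 2-fold lower, and the median log2 ratio was 1.27. Several of these genes are also expressed by pluripotent cells. Tfap2c had 11.1 and 68.0 FPKM, Prdm14 3.8 and 14.8 FPKM, and Prdm1 1.36 and 6.74 FPKM. Tfap2c and Prdm1 have the status FAIL. Ifitm3 was nearly level at 81.8 and 95.4 FPKM. Nanos3, the 1 gene of this list that was lower in A2 MNs, had 1.31 and 0.756 FPKM. Of 15 genes of postmeiotic spermatids only 2 had a mean of at least 1 FPKM. They were Ldhc (1.09 and 2.596 FPKM) and Tssk6 (2.46 and 1.43 FPKM, with the status FAIL). The whole list summed to 5.94 FPKM in Hb9 MNs and 5.37 FPKM in A2 MNs. Testis-restricted and cancer-testis genes, mostly on the X chromosome, had 18 of 31 above the limit, with 5 at least 2-fold higher and 1 at least 2-fold lower (7 and 1 relative to the median gene) and a median of 0.20 on the log2 scale. Rhox6 had 9.64 and 33.9 FPKM, Rhox9 7.77 and 31.5 FPKM, and Tex19.1 61.1 and 121 FPKM. Nxf3 was the gene past 2-fold in the other direction, at 19.3 and 5.58 FPKM. Copies of the Rhox and Xlr families are alike enough that their values are uncertain.

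Markers of other cell types differed between the genotypes, in both directions. All 13 pluripotent cell markers were at least 2-fold higher in A2 MNs, and the median log2 ratio was 2.51. Their summed level was 303 FPKM in Hb9 MNs and 1953 FPKM in A2 MNs. Among them were Pou5f1 (98.3 and 775 FPKM) and Nanog (41.4 and 236 FPKM). Of the 10 MN markers with a mean of at least 1 FPKM, 9 were at least 2-fold lower (8 relative to the median gene). Mnx1, the gene of the Hb9 promoter, was at 41.2 and 44.2 FPKM, and Chat, the acetylcholine synthetic enzyme, went from 15.5 to 0.344 FPKM, so that this defining marker was near 0 in A2 MNs. Somatic gonad genes had 6 of 14 above the limit and none of them was higher in A2 MNs (2 relative to the median gene). Sox9 had 75.4 and 4.87 FPKM, Gata4 (status FAIL) 16.9 and 10.7 FPKM, Inha 6.05 and 2.13 FPKM and Wt1 5.09 and 4.67 FPKM. These 4 genes are also used outside the gonad. Of the other 8, under the limit, Amh (0.362 and 0.294 FPKM) and Nr5a1 (0.0719 and 0.0877 FPKM) were named after their values were seen. Of 9 feeder fibroblast markers 8 passed, 1 at least 2-fold higher and 5 at least 2-fold lower (1 and 2 relative to the median gene). The higher one, Thy1 (0.970 and 2.20 FPKM), passed only through A2 MNs, and with a mean of at least 5 FPKM none was higher and 3 were lower. The Y-linked genes with a mean of at least 1 FPKM, 4 of 8, were all higher in A2 MNs, among them Eif2s3y at 19.6 and 109 FPKM. The entries of Xist and its antisense gene Tsix were both under 1 FPKM in each genotype. They have the same span and strand is not marked, so their reads cannot be told apart. The part of each of these differences in the levels of the germline genes was not tested.

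The members lie on 9 chromosomes. For each member the nearest entry on each side with a mean of at least 1 FPKM was taken, which gave 20 neighbours. Of these 7 were higher and 13 lower in A2 MNs (8 higher relative to the median gene), beside the 34.0% of background genes that were higher, and the median log2 ratio was -0.39. Stag3 lies 235 bp from the entry of Gal3st4 and Gpc2, which was at 153 FPKM in Hb9 MNs and 20.4 FPKM in A2 MNs. Golph3l, 1124 bp from Hormad1, had 31.5 and 28.2 FPKM. These 2 neighbours were chosen after their values were seen, as those of the members past 2-fold. The status FAIL was given to 4 of the members (Stra8, Sycp1, Stag3 and Tex11). It was given to 14.4% of the background. The median log2 ratio of these 4 was 0.77, and that of the other 6 was 0.82.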

How the data were processed

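RNA from FACS-collected MNs was sequenced in 3 Hb9 control and 3 A2 SMA samples. The authors checked reads with FastQC 0.10.1, removed adapters with cutadapt, aligned them by TopHat2 2.04 to NCBI m37 with its Ensembl annotation, and used Cufflinks and Cuffdiff to make the deposited FPKM values, 1 per genotype. Their fold changes, test statistics, p-values and q-values are their own comparison and were not used. No value of a single sample was used, so no error and no test could be computed. The study lists total reads for each sample, which are not used here, and the reads behind each gene are not given by the FPKM values.

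Symbols were split at commas and the entry with the highest FPKM was kept. Ratios were formed without a pseudocount from genes with a mean of at least 1 FPKM, with Python 3.11.15, numpy 2.4.6 and pandas 2.3.3. Figures were drawn with matplotlib 3.10.9. Counting was tested on simulated data. The named genes are the members, Smn1, and from each list the 4 with the highest FPKM and at most 4 with the largest ratio (at most 4 in all for the general marker lists), except where stated. The members and lists were chosen with earlier results of these data known. Other scalings, pseudocounts, filters and folds were tried as alternatives. Promoter windows came from RefSeq (GRCm38.p6) by symbol, for 86.0% of the list genes above the limit, and no coordinates were converted.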

Additional observations from a re-analysis of the deposited data

How the results depend on the processing

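The log2 ratio of each of the 10 members stayed above 0 in all 85 recomputed values (0.15 to 2.19). Pseudocounts and filters cannot change the sign of a ratio, and both scalings raised every ratio. The constant sign is therefore no measure of robustness. The median of the members moved by less than 1.5-fold. Their count at least 2-fold higher, 2 as deposited, was 7 relative to the median gene and also 7 after scaling to the upper quartile, because both take about -0.28 off each log2 ratio. It was 1 with a mean of at least 5 FPKM (Hormad1 drops out), 1 without the status FAIL (6 members are left) and 0 at a limit of 4-fold. Of the other germline and meiosis genes, 17 were at least 2-fold higher, and 10 without the status FAIL, where 45 genes are left. Their count at least 2-fold lower, 8, was 5 relative to the median gene and 5 after scaling to the upper quartile. Smn1 stayed more than 2-fold lower. Of the values for single members and lists, 591 moved by at most 1.5-fold and 51 by more, and no ratio or median that was at least 2-fold as reported changed sign. Of 179 recomputed list medians 8 changed sign, in 4 lists that lay near 0: relative to the median gene, H3K9 methylation went from -0.18 to 0.11, the RNA-binding proteins from -0.10 to 0.18 and meiotic cohesin from -0.05 to 0.23, and without a filter the spermatid genes went from 0.23 to -1.003. This limit of 1.5-fold only sorts how far a value moved between processing choices, and it gives no measure of the spread between samples. No replicate could be left out, since the table holds no values per sample. No paired analysis was possible because the columns carry no replicate numbers.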

Other observations

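The proteins that keep germline genes silent in somatic cells were read from 3 lists. Of 12 genes of the Polycomb complex with Mga and E2f6, 1 was at least 2-fold higher in A2 MNs and 3 were at least 2-fold lower (3 and 1 relative to the median gene). The background shares were 6.21% and 21.4% (9.65% and 15.7% relative to the median gene). The median log2 ratio of the list was 0.25. The higher one, Rybp, had 0.792 and 1.98 FPKM and passed the limit only through A2 MNs, so that the count was 0 with a mean of at least 5 FPKM. E2f6, which binds the E2F site, had 41.2 FPKM in Hb9 MNs and 18.1 FPKM in A2 MNs. Relative to the median gene its log2 ratio was -0.91, inside the 2-fold limit. Yaf2, at 50.5 and 16.4 FPKM, was the 1 gene still 2-fold lower on that scale. Mga, which binds the E-box with Max, had 48.5 and 59.4 FPKM, and L3mbtl2 44.0 and 75.3 FPKM. Of 10 genes of H3K9 methylation and its partners 1 was at least 2-fold higher (Morc1, 5.45 and 19.99 FPKM) and none was 2-fold lower. Relative to the median gene 2 were higher, with Trim28, the most abundant of the list, at 1009 and 1897 FPKM (status FAIL). Of 13 genes of DNA methylation 4 were at least 2-fold higher and 2 at least 2-fold lower (4 and 1 relative to the median gene). Without the 7 entries of status FAIL these counts were 1 and 1. Dnmt3l, a cofactor of the de novo methyltransferases in germ cells, had 133 and 321 FPKM, Tet1 15.5 and 49.5 FPKM, and Tet3 22.8 and 6.22 FPKM. Each of these genes has the status FAIL. These levels were not related to the germline genes by any test.

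Oocyte genes had 5 of 14 above the limit, 4 of them at least 2-fold higher in A2 MNs and 1 at least 2-fold lower. Ooep (7.67 and 34.2 FPKM), Tle6 (17.1 and 51.5 FPKM) and the entry that holds Khdc3 (15.8 and 53.3 FPKM) encode parts of the subcortical maternal complex of the egg. The entry of Khdc3 also holds Rsl24d1 and Gm20509, so its value cannot be given to 1 gene. Without shared entries 3 genes were higher. The zona pellucida gene Zp3 had 0.720 and 2.25 FPKM and passed the limit only through A2 MNs. Gdf9, an oocyte growth factor, had 3.05 and 1.06 FPKM.

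Nr1h5, chosen after its values were seen, lies 3419 bp from Sycp1 and was at 0.0497 FPKM in Hb9 MNs and 25.1 FPKM in A2 MNs. It passed the mean of 1 FPKM only through A2 MNs, so its ratio rests on a level near 0.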
